A study of Mus musculus with 36 samples.

Results

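Cytoplasmic dynein and dynactin subunits were followed through ribosome profiling libraries of mouse brain. The 10 genes Dync1h1, Dync2h1, Dync1i1, Dync1i2, Dync1li1, Dync1li2, Dctn1, Dctn2, Dctn4 and Pafah1b1 were taken by symbol from the 16614 rows of the count table. All 10 were found, and all were tested in every comparison below. Ribosome-protected fragments (RPFs), the stretches of mRNA that a ribosome shields from nuclease, had been sequenced from 2 parts of a sucrose gradient. One is the pellet, which the labels call Granule. Its ribosomes are thought to include those of neuronal RNA granules, though it may hold others. The other is fraction 5/6, labelled Polysome, which holds ribosome clusters that do not pellet.

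RNA-seq of the homogenate was made beside the RPFs. The WT group was C57BL/6 and the FMR1 KO group was FMR1-KO mice, which carry a knockout of the gene of the RNA-binding protein FMRP. All mice were at postnatal day 5, and 10 whole brains were pooled for each preparation, so every library averages over animals and over all cells of the brain. The standard preparation used 10 mM MgCl2 with the stronger nuclease digestion. The low nuclease preparation used 2.5 mM MgCl2 with weaker digestion in the cold. The 12 groups of genotype, material and preparation held 3 libraries each, 36 in all. Magnesium, nuclease and temperature changed together between the preparations and cannot be told apart.

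Cytoplasmic dynein is the motor that carries cargo toward the minus ends of microtubules, which in axons means toward the cell body. Dync1h1 encodes the heavy chain with the ATPase ring that generates force. The intermediate chains (Dync1i1, Dync1i2) and light intermediate chains (Dync1li1, Dync1li2) sit on its tail and link it to dynactin and to cargo adaptors. Dctn1 (p150Glued) is the dynactin arm that binds microtubules and dynein, Dctn2 (dynamitin) is part of the dynactin shoulder, and Dctn4 (p62) belongs to its pointed end. Pafah1b1 encodes LIS1, a dynein regulator known for its part in neuronal migration. Dync2h1 is the heavy chain of dynein-2, which returns cargo along cilia.

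The members differ most in size. The coding sequence spans 13932 nt in Dync1h1 and 12939 nt in Dync2h1, here called the heavy chains. Dctn1 follows with 3843 nt, and the other 7 lie between 1206 nt (Dctn2) and 1935 nt (Dync1i1). In GRCm38 the genes lie at chr12:110601452-110666945 (Dync1h1), chr9:6928503-7184446 (Dync2h1), chr6:5725639-6028039 (Dync1i1), chr2:71211706-71263303 (Dync1i2), chr9:114688790-114724302 (Dync1li1), chr8:104417680-104443047 (Dync1li2), chr6:83165920-83200117 (Dctn1), chr10:127266368-127281950 (Dctn2), chr18:60526185-60558766 (Dctn4) and chr11:74673949-74724670 (Pafah1b1). Dync2h1, Dync1li2 and Pafah1b1 are on the minus strand.

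Total counts per library ran from 6765065 to 62310787 in RPFs and from 41586791 to 147216378 in RNA-seq. The row of Cdk8 alone took 36.7% to 63.4% of the counts in standard RPF libraries and at most 0.034% in standard RNA-seq, so levels are given as CPM, each gene's counts scaled to the same library total, without it. Neuronal markers were present in every library, with all 5 in the table and a summed level of 6282 to 7433 CPM in standard RNA-seq. Fmr1, the targeted gene, was at 61 to 72.4 CPM in WT and 16.5 to 18.2 CPM in FMR1 KO standard RNA-seq, and at 64.7 to 68 against 4.8 to 4.94 CPM in the pellets. The library labelled WT fraction 5/6 replicate 3 of the standard preparation went against its label. It held 3.18 CPM of Fmr1, where the other 2 of its group held 100 and 68.8 CPM, and its heavy chain levels were those of a pellet. Comparisons that rest on it are given with and without it. It was singled out after the data were seen, in part by its heavy chain levels. Heavy chain values without it are therefore not independent of that choice. In 3 low nuclease RNA-seq libraries (WT replicate 2, FMR1 KO replicates 2 and 3) the top 10 genes took 81.5% to 85.0% of the counts, against 3.7% to 4.1% in the other 3.

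Dync1h1 was the member whose level differed most between the gradient parts. In standard WT pellets it stood at 1277, 1026 and 1448 CPM, and in FMR1 KO pellets at 1654, 754.5 and 1598 CPM. In FMR1 KO fraction 5/6 the 3 libraries held 72.3, 59.34 and 73.35 CPM, and in WT fraction 5/6 they held 57.28, 46.23 and, in the library that went against its label, 1516 CPM. Apart from that library, every pellet was over every fraction 5/6 library. Standard RNA-seq lay between them, with 330.5, 392 and 374.7 CPM in WT and 396.1, 299.2 and 414.1 CPM in FMR1 KO. In bulk tissue, a change in the share of cells that express a gene and a change in its RNA per cell cannot be told apart.

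Dync2h1 followed the same order at lower levels. WT pellets held 110.4, 89.46 and 120.9 CPM and FMR1 KO pellets 125.3, 67.26 and 121.4 CPM. FMR1 KO fraction 5/6 held 13.26, 11.93 and 21.79 CPM, and WT fraction 5/6 held 13.64, 7.401 and 108.3 CPM, the last again from the library that went against its label. Standard RNA-seq ranged from 42.27 to 51.98 CPM over both genotypes. FMR1 KO pellet replicate 2 was the lowest of its group for all 10 members.

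The gaps of the smaller members between the parts were smaller, and Dctn2 had one in the other direction in FMR1 KO, with 285.9, 227.4 and 314 CPM in pellets and 393.1, 471.1 and 577.9 CPM in fraction 5/6. Dync1i2 held 517.4, 535.4 and 438.7 CPM in WT pellets and 609.8, 349.4 and 587.3 CPM in FMR1 KO pellets. Its fraction 5/6 levels were 490.7, 313.9 and 536.9 CPM in WT and 397.7, 564.5 and 718.7 CPM in FMR1 KO, so the ranges of the parts overlapped. Dctn1, the longest of the smaller members, lay at 544 to 594.5 CPM in WT pellets, and at 343, 248.9 and 712.8 CPM in WT fraction 5/6. Without the library that went against its label, its WT groups did not overlap. In CPM, Pafah1b1 was the one member below its RNA-seq level in every standard RPF library, with 259.3 to 395.6 CPM in pellets, 287.2 to 544.4 CPM in fraction 5/6 and 599.3 to 777.5 CPM in RNA-seq. This turned with the scaling, since under TMM its WT pellets (368, 347.3 and 400.9 CPM) were all above WT RNA-seq (264.2, 325 and 315.3 CPM). In FMR1 KO the TMM values of its pellets (335.5, 330.5 and 339 CPM) and RNA-seq (324.9, 347.5 and 342.3 CPM) overlapped.

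**Figure D1:**
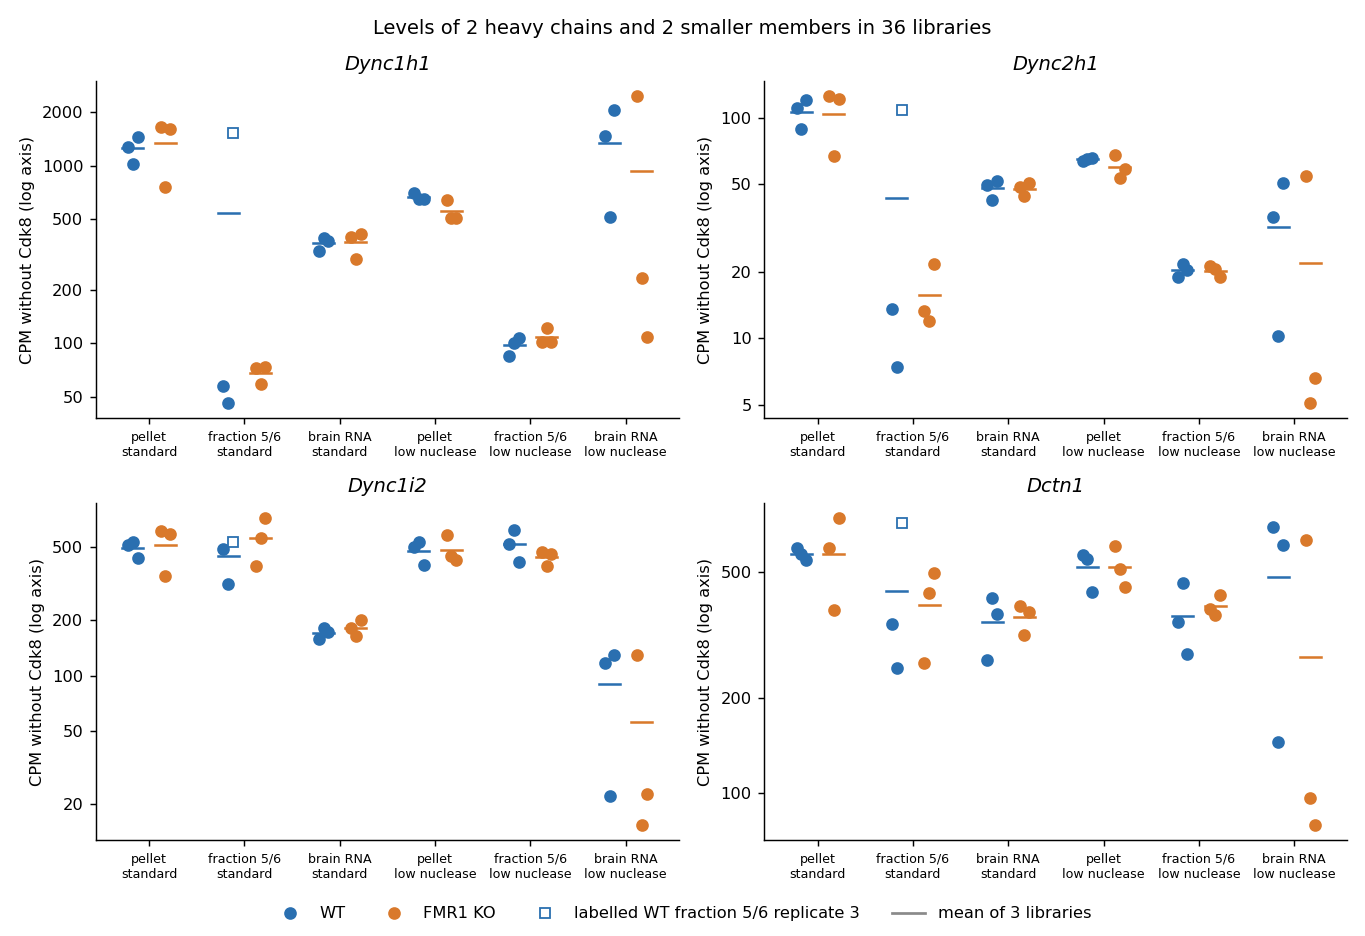
Level of Dync1h1, Dync2h1, Dync1i2 and Dctn1 in all 36 libraries, in CPM without Cdk8 on a log axis; points are libraries, lines are group means, and the hollow square is the library labelled WT fraction 5/6 replicate 3. For Dync1h1 the FMR1 KO pellets sit between 754.5 and 1654 CPM and FMR1 KO fraction 5/6 between 59.34 and 73.35 CPM, while the ranges of Dync1i2 overlap.

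Per length of coding sequence, the order of the members was led by Pafah1b1 in most groups and always ended with Dync2h1. In WT standard RNA-seq, RPKM values, that is CPM per kilobase, here of coding sequence, were 557.2 ± 61.0 for Pafah1b1, 257.3 ± 24.7 for Dctn2 and 117.8 ± 3.99 for Dync1li2 (SD, n = 3). Dctn4, Dync1li1, Dctn1, Dync1i2 and Dync1i1 followed within 73.78 to 92.72, and neighbours among these 5 overlapped within their SDs. Dync1h1 was ninth with 26.25 ± 2.28, and Dync2h1 last with 3.709 ± 0.393. RNA-seq of the motor's heavy chain was below that of its own intermediate and light intermediate chains on this scale. Per kilobase of exon the order differed. There Dync1h1 at 23.36 ± 2.03 was above Dync1i2 at 20.61 ± 1.36 and below Dync1li2, Dync1li1 and Dync1i1 (28.85 to 39.97).

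In WT pellets Dync1h1 rose per kilobase of coding sequence to 89.77 ± 15.23, next to Dctn4 at 104.4 ± 12.1 and Dync1li2 at 78.87 ± 5.80. It overlapped with both within the SDs. In FMR1 KO fraction 5/6 it was at 4.905 ± 0.560 on that scale, where the next member above it, Dync1li2, was at 101.0 ± 17.3. Per kilobase of exon, Dync1h1 in WT pellets was at 79.87 ± 13.55, next to Dctn1 at 87.51 ± 3.88 and Dync1i1 at 86.43 ± 3.83, with Pafah1b1 at 39.78 ± 1.13. The heavy chain share is the percent that Dync1h1 and Dync2h1 make up of the members' summed level, here per kilobase of exon. It came to 16.9 ± 3.15% in WT and 17.9 ± 2.52% in FMR1 KO pellets, 7.46 ± 0.35% and 7.34 ± 0.833% in RNA-seq, and 1.18 ± 0.3% in FMR1 KO fraction 5/6 (SD, n = 3 each). Per kilobase of coding sequence the shares were lower in the same order, at 6.34% and 6.82%, 2.15% and 2.08%, and 0.371%. The WT fraction 5/6 libraries gave, per exon length, 1.02%, 1.18% and 18.3%, the last from the library that went against its label. In the low nuclease preparation the share was 9.15 ± 0.605% and 7.67 ± 0.462% in pellets and 1.43 ± 0.169% and 1.62 ± 0.212% in fraction 5/6, for WT and FMR1 KO in turn. Low nuclease RNA-seq went the other way from the standard, with 28.4 ± 8.07% and 24.2 ± 7.03%, above its pellets. No pellet library overlapped fraction 5/6 in either preparation once that library was set aside.

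Enrichment compares pellet RPFs with fraction 5/6 RPFs and asks which mRNAs carry their ribosomes in the part that pellets. In FMR1 KO mice of the standard preparation Dync1h1 was higher in the pellet by 4.51 ± 0.33 on the log2 scale (SE, adjusted p = 0.0013 by edgeR, quasi-likelihood F test, adjusted after Benjamini and Hochberg over all genes tested), a 19.5-fold ratio of mean CPM. Dync2h1 was higher by 3.05 ± 0.17 (adjusted p = 0.0012), a 6.68-fold ratio. No smaller member passed. Among all 13163 genes tested, 9.15% were called higher and 2.48% lower, against 2 higher and 0 lower of the 10 members. The median over the 8 smaller members was 0.15, and that over all genes was -0.04.

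The nearest of the smaller members was Dctn1, at 0.83 ± 0.22 (adjusted p = 0.061). Leaving out FMR1 KO fraction 5/6 replicate 2 brought it to 1.03 with an adjusted p of 0.04, and DESeq2 also called it. Dctn2 went the other way, at -0.50 ± 0.16 (adjusted p = 0.087; DESeq2 called it lower with an adjusted p of 0.0058), with every pellet library below every fraction 5/6 library. Dync1i1, Dync1i2, Dync1li1, Dync1li2, Dctn4 and Pafah1b1 were between -0.14 and 0.19 with adjusted p of 0.39 or more.

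In WT mice the outcome turned on the library that went against its label. With it, no member was called. Dync1h1 was at 1.34 ± 1.28 (adjusted p = 0.70), and 0.0154% of 12993 genes were called higher and 0.0077% lower. Of all genes, 797 had an unadjusted p under 0.05, none of them a member, and DESeq2 called 0 members too. Without it, Dync1h1 was higher in the pellet by 4.53 ± 0.33 (adjusted p = 0.0063), Dync2h1 by 3.34 ± 0.26 (0.0067), Dctn1 by 0.88 ± 0.14 (0.024) and Dctn4 by 0.43 ± 0.09 (0.049), where 7.81% of 13155 genes were called higher and 1.92% lower. The ratios of mean CPM for the heavy chains were then 24.2-fold and 10.2-fold. Since heavy chain levels were among the reasons to set the library apart, these heavy chain values are not independent of that choice.

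The low nuclease preparation, made in separate preparations, gave the heavy chains smaller differences in the same direction. In WT, Dync1h1 held 704.6, 652.1 and 649.2 CPM in the pellet and 85.31, 100.1 and 106.7 CPM in fraction 5/6, and was higher by 2.90 ± 0.14 (adjusted p = 0.0019). In FMR1 KO the libraries held 640.3, 509.8 and 508.6 against 101.5, 122 and 101.2 CPM, a difference of 2.55 ± 0.20 (adjusted p = 0.0067). Dync2h1 was higher by 1.79 ± 0.10 in WT and 1.76 ± 0.16 in FMR1 KO (adjusted p = 0.0019 and 0.0082). The groups of both heavy chains did not overlap.

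Dctn2 was lower in low nuclease pellets, by -0.65 ± 0.15 in WT and -0.54 ± 0.12 in FMR1 KO (adjusted p = 0.029 in both). Its WT pellets held 347.2, 361.4 and 313.1 CPM and WT fraction 5/6 held 546.9, 561.3 and 631.5 CPM. That call was lost when any single library but WT pellet replicate 2 or, in FMR1 KO, pellet replicate 1 was left out, with adjusted p up to 0.11. In the fits that lost it, all genes called lower also fell, to 0.541% to 4.76% in WT and 0.166% to 6.36% in FMR1 KO. Background calls were 14.3% higher and 8.66% lower in WT, and 8.82% and 11.8% in FMR1 KO. Whether the standard and low nuclease enrichments differ was not tested.

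**Figure D2:**
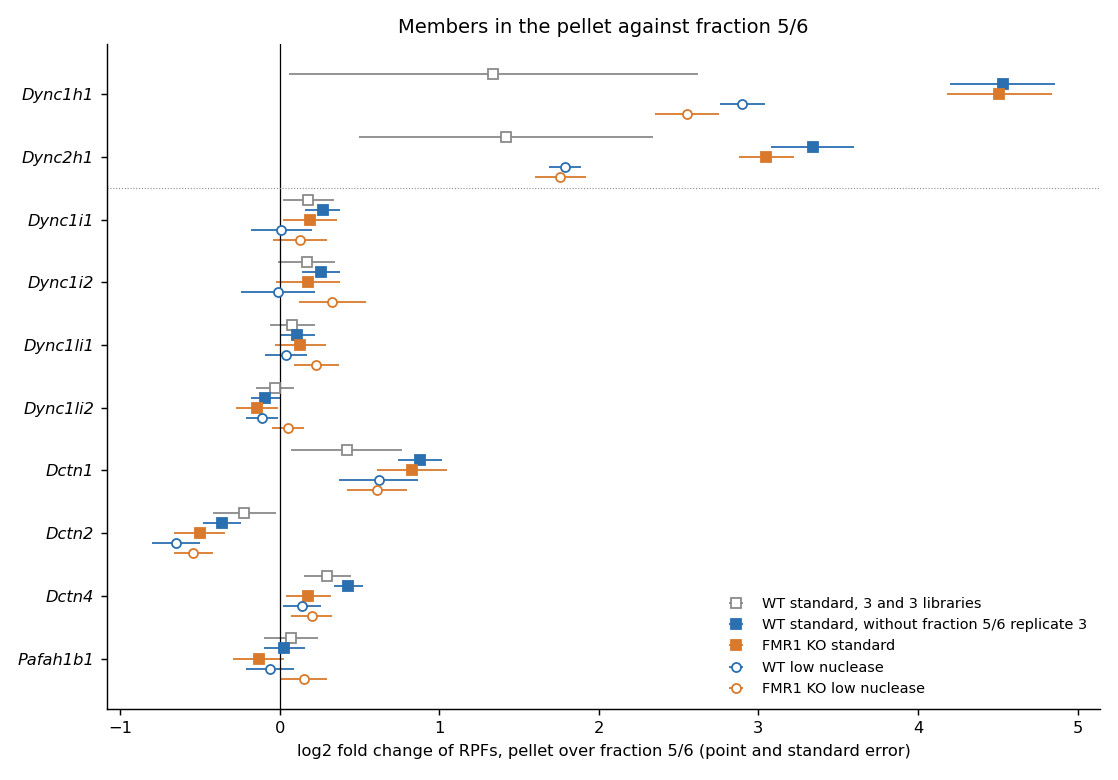
Enrichment of the 10 members as log2 of pellet over fraction 5/6 with SE, for each genotype and preparation and for WT standard libraries without replicate 3 of fraction 5/6; the line at 0 marks equal levels. Dync1h1 (2.55 to 4.53) and Dync2h1 (1.76 to 3.34) stand above the smaller members in the 4 fits without the library that went against its label. For WT standard libraries this rests on leaving it out, a choice made partly on its heavy chain levels.

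Enrichment followed coding length over the 13163 genes of FMR1 KO standard libraries, a description across genes that share libraries. Genes under 1000 nt had a median of -0.33 and were called higher in 0.31% of cases. Genes of 4000 to 9000 nt had a median of 0.95 and were called in 51.1%, and the 135 genes of 9000 nt or more had a median of 1.57 with 84 called (62.2%). Both heavy chains are in that last class, and Dync1h1 at 4.51 was above its median by more than Dync2h1 at 3.05.

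**Figure D3:**
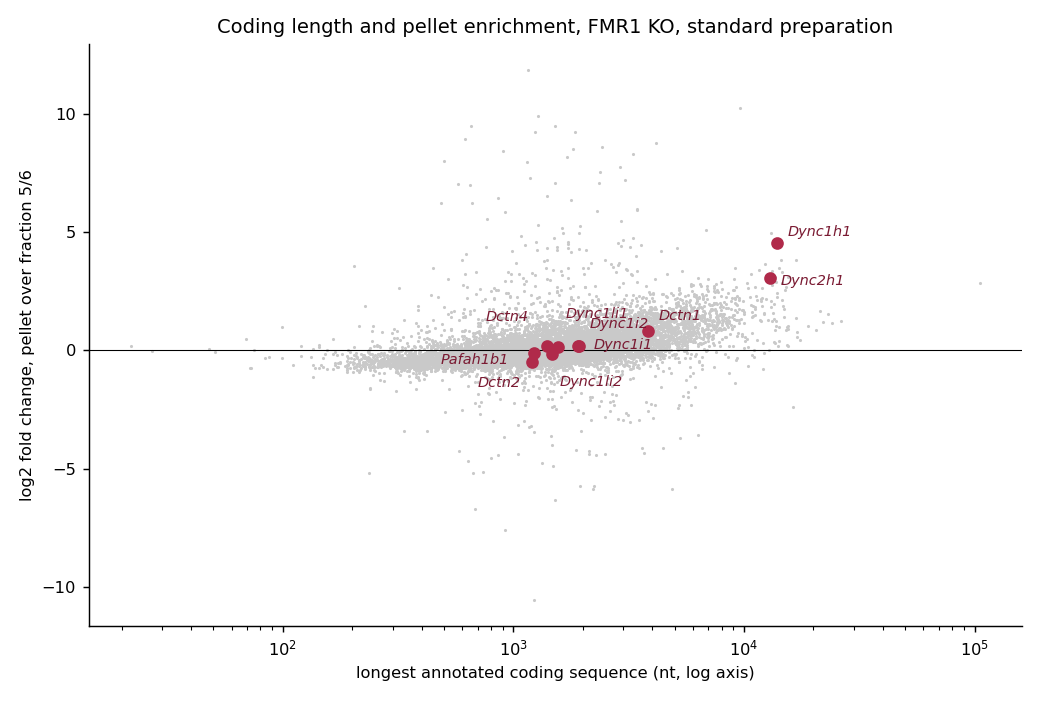
Coding length in nt (log axis) against log2 pellet over fraction 5/6 in FMR1 KO standard libraries for all genes tested, with the 10 members marked. The 2 heavy chains lie at the right, at 4.51 and 3.05, and the 8 smaller members lie between -0.50 and 0.83.

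Occupancy compares RPFs with RNA-seq, that is ribosome fragments per mRNA. In standard WT pellets 9 of the 10 members were higher than in RNA-seq, where 31.2% of 16060 genes were called higher and 34.3% lower, and 9 were higher in FMR1 KO, where the shares were 31.8% and 35.2% of 16027. Dync1h1 led with 2.95 ± 0.22 in WT and 2.92 ± 0.23 in FMR1 KO (adjusted p = 2.4e-05 and 5.0e-05). Dync1i2 followed with 2.70 ± 0.13 and 2.59 ± 0.15, then Dync2h1 with 2.33 ± 0.19 and 2.21 ± 0.12 and Dync1i1 with 2.27 ± 0.18 and 2.09 ± 0.12. Dctn1, Dync1li1, Dctn4, Dctn2 and Dync1li2 were higher by 0.58 to 1.87 in WT and 0.48 to 1.74 in FMR1 KO. Pafah1b1 was not called, at 0.32 ± 0.14 (adjusted p = 0.074) and -0.02 ± 0.12 (adjusted p = 0.89), although DESeq2 called it in WT (0.36, adjusted p = 0.018).

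These values depend on the scaling. The trimmed mean scaling put the median of all genes at -0.11 in WT and -0.07 in FMR1 KO, whereas library size without Cdk8 put it at -1.26 and -1.17. Under library size 8.64% of genes were called higher and 68% lower in WT, and 7.81% and 62.4% in FMR1 KO, and 6 members were higher and 2 lower in WT and 4 higher and 2 lower in FMR1 KO. Dync1h1, Dync2h1, Dync1i1 and Dync1i2 were higher under either scaling, and Dync1li2 and Pafah1b1 were lower under library size. Marker sums of some other cell types also moved between pellet and RNA-seq. The 5 astrocyte and radial glia markers overlapped, at 815 to 1147 CPM in standard pellets and 715 to 1148 CPM in RNA-seq. The 2 red cell markers summed to 2.41 to 8.69 CPM in standard pellets and 179 to 421 CPM in RNA-seq, and the 5 oligodendrocyte lineage markers, with Mog at 0 in some libraries, to 57.3 to 108 against 237 to 538 CPM. Their part in the occupancy of the members was not tested.

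In fraction 5/6 the heavy chains and the smaller members parted. In FMR1 KO, Dync1h1 was lower than in RNA-seq by -1.48 ± 0.21 (adjusted p = 5.2e-04) and Dync2h1 by -0.73 ± 0.12 (adjusted p = 0.0011), in ratios of mean CPM of 0.185 and 0.327. Of the 8 smaller members 7 were higher, from 0.73 ± 0.13 (Dync1li2) to 2.51 ± 0.16 (Dync1i2), and Pafah1b1 was at 0.21 ± 0.15 (adjusted p = 0.24; DESeq2 called it with 0.043). The background was 29.8% higher and 33.1% lower, and of the 143 genes with 9000 nt or more of coding sequence 80 were lower, with a median of -0.74. Under library size both heavy chains were again lower, but 4 smaller members were higher and 1, Pafah1b1, lower, beside 8.04% and 56.1% of all genes. In WT without the library that went against its label, Dync1h1 was at -1.54 ± 0.17 and Dync2h1 at -0.94 ± 0.16 (adjusted p = 4.4e-04 and 0.0028) and the same 7 smaller members were called higher, with 27.9% and 32% in the background. With that library the heavy chains were not called (1.55 ± 1.22 and 0.86 ± 0.84), and the background was 24.7% and 31.2%. A replicate block turned the median of the heavy chains there from 1.21 to -0.19, again without a call, beside 21.4% and 28% of all genes.

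**Figure D4:**
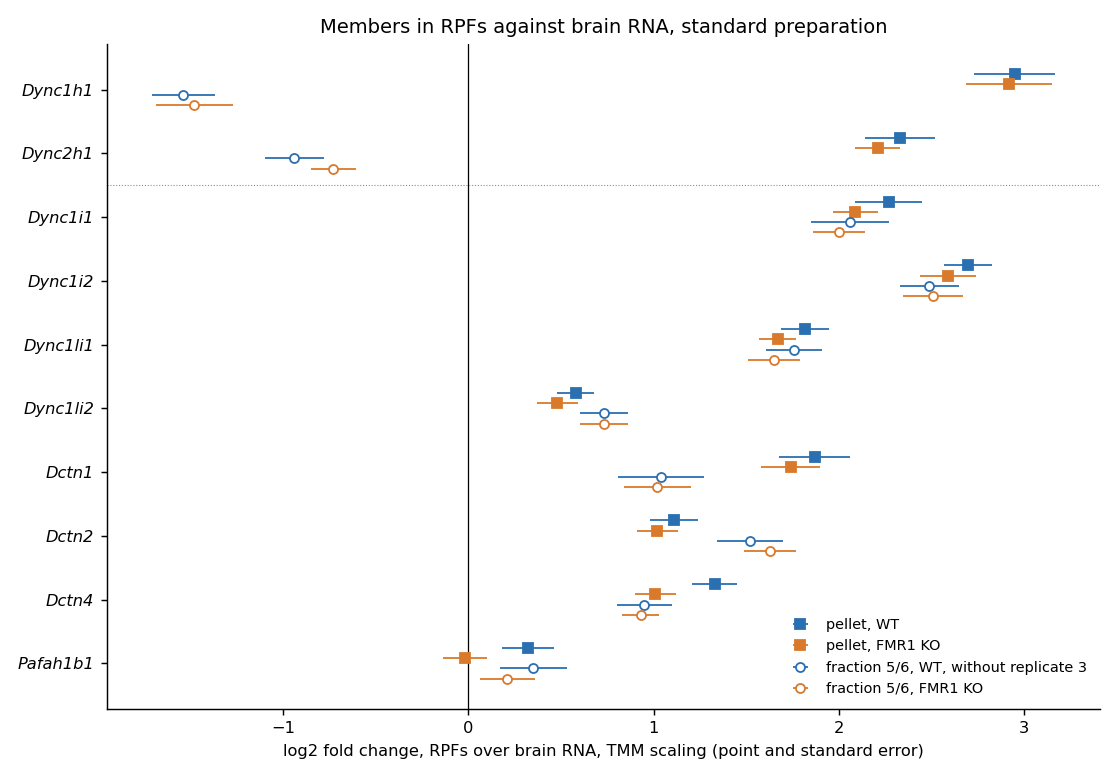
Occupancy of the 10 members as log2 RPF over RNA-seq with SE in the standard preparation, for pellet and fraction 5/6 of each genotype; WT fraction 5/6 is drawn without replicate 3. The heavy chains are above 0 in pellets (2.21 to 2.95) and below 0 in fraction 5/6 (-1.54 to -0.73), while 7 of the 8 smaller members are called above RNA-seq in fraction 5/6 of each genotype.

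The low nuclease RNA-seq could not carry the same comparison evenly. Dync1h1 held 1462, 514.9 and 2040 CPM there in WT and 2448, 233.3 and 108.5 CPM in FMR1 KO, against 299.2 to 414.1 CPM in standard RNA-seq. In CPM the libraries with 81.5% to 85.0% of counts in 10 genes were the low ones, but with TMM scaling over all libraries WT replicate 2 was the highest of its group (688.3, 1736 and 963.2 CPM). Against these libraries, Dync1h1 in low nuclease pellets was at -1.43 ± 0.39 in WT (adjusted p = 0.018) and -1.19 ± 0.44 in FMR1 KO (adjusted p = 0.079). Without WT RNA-seq replicate 2 it was -0.90 ± 0.20 (adjusted p = 0.011), with 7 members higher and 1 lower, beside 29.2% and 29.7% of all genes. Without FMR1 KO RNA-seq replicates 2 and 3, which leaves 1 library that is taken to vary like the pellets, it was -1.69 ± 0.28 (adjusted p = 0.02), with 5 higher and 1 lower, beside 19.5% and 19%. Of the members 6 were higher and 1 lower in WT (background 24.9% and 27.6%), and 4 were higher in FMR1 KO (background 16% and 12.8%). Under library size none of these calls was kept, as given further below with the shares of all genes. Against the standard RNA-seq libraries, a comparison chosen after the data were seen, Dync1h1 was at 1.34 ± 0.14 and 1.08 ± 0.17 (adjusted p = 1.4e-04 and 0.0018). Then 9 members were higher in both genotypes, with backgrounds of 30.9% higher and 33.4% lower in WT and 27.1% and 34% in FMR1 KO.

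Standard pellets were also compared with low nuclease pellets. In WT, 6 members were higher in the standard preparation, against 15.1% of 14661 genes higher and 23.9% lower. Dync1h1 rose by 1.45 ± 0.21 and Dync2h1 by 1.26 ± 0.18 (adjusted p = 0.0053 and 0.0052), and Dctn1, Dync1i2, Dync1li1 and Dync1i1 by 0.40 to 0.68. Library size put the median of all genes at -0.58, with 1.98% called higher and 49% lower, and left the 2 heavy chains higher (0.90 and 0.72) and Dync1li2 and Pafah1b1 lower. Leaving out WT standard pellet replicate 1 left 2 calls, where the shares of all genes also fell, to 6.05% and 10.4%. In FMR1 KO the heavy chains alone were called, at 1.73 ± 0.27 and 1.27 ± 0.18 (adjusted p = 0.015 and 0.011), with 7.36% higher and 9.39% lower. Those calls fell to 1 without standard pellet replicate 1 or low nuclease pellet replicate 2 and to 0 without low nuclease pellet replicate 3, where 1.09% to 1.24% of all genes were higher. They became 5 without low nuclease pellet replicate 1, where 12.5% were higher.

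No member was called different between FMR1 KO and WT in any standard comparison by edgeR. In pellets, Dync1h1 was at 0.07 ± 0.26, Dync2h1 at -0.04 ± 0.20 and the smaller members between -0.14 and 0.07, and no member had an unadjusted p under 0.05. Of 13285 genes 0% were called higher and 0.0151% lower. RNA-seq differences lay between -0.06 and 0.20, again with 0 members under an unadjusted 0.05, beside 0.0308% and 0.0431% of 16228 genes. The genotype difference of occupancy was 0.01 ± 0.31 for Dync1h1 and at its lowest -0.30 ± 0.16 for Pafah1b1 (adjusted p = 0.83), with 0.0492% and 0.0184% of genes called. DESeq2 called 0 members in these 3 as well, and gave 1 member an unadjusted p under 0.05 in occupancy.

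Fraction 5/6 gave Dync1h1 a difference of -3.14 ± 1.33 (adjusted p = 0.83), which became 0.04 ± 0.24 without the library that went against its label, and no gene was called among 12990 with it (585 had an unadjusted p under 0.05). Without it 0.0303% of genes were called lower, none of them a member. The genotype difference of enrichment went from 3.21 ± 1.44 (adjusted p = 0.88) to -0.00 ± 0.39 without it, again with no call among 13592 genes. There 1 member, a heavy chain, had an unadjusted p under 0.05 with that library and 0 without it. DESeq2 called 0 members in both, of those it gave an adjusted p. Differences near the size of these SEs were not detectable with 3 libraries a group, and larger ones, such as -3.14 ± 1.33, also went uncalled. The lack of calls does not show equal levels.

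The rest of the pathway was read from 4 lists. Of 13 dynein light chains and dynein-2 subunits, 2 were higher and 7 lower in WT pellet occupancy, with a median of -1.16, where 31.2% of all genes were higher and 34.3% lower. Under library size 1 was higher and 11 lower, beside 8.64% and 68%. Dync2li1, the light intermediate chain of dynein-2, was highest, at 22.9, 23.9 and 20.7 CPM in pellets against 14.8, 15.2 and 14.1 CPM in RNA-seq (1.77 ± 0.11). Dynlt1c was lowest, at 0.0471, 0 and 0 CPM against 3.43, 2.79 and 2.25 CPM. It has near-identical copies, so its reads may be split among them. In FMR1 KO enrichment none of the 10 tested in this list was called (median -0.48), beside 9.15% higher and 2.48% lower of all genes. In FMR1 KO occupancy 2 were higher and 9 lower, beside 31.8% and 35.2%.

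Of 9 other dynactin subunits, 6 were higher and 2 lower in WT pellet occupancy (median 0.62, beside 31.2% and 34.3% of all genes), and under library size 1 was higher and 6 lower (beside 8.64% and 68%). Actr10, the Arp11 subunit of the pointed end, was highest at 1.80 ± 0.10, and Capza1, a capping protein subunit, lowest at -1.94 ± 0.13 with 6.83, 7.13 and 6.47 CPM against 64.2, 51.1 and 60.1 CPM. In FMR1 KO enrichment Dctn6 was lower by -0.54 ± 0.13 (adjusted p = 0.043) and no other was called, beside 9.15% higher and 2.48% lower of all genes. Under library size none was, where 1.23% and 0.228% of all genes were.

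Of 18 dynein regulators and cargo adaptors, 9 were higher and 7 lower in WT pellet occupancy, again beside 31.2% and 34.3% of all genes. Library size gave 1 higher and 11 lower, beside 8.64% and 68%. Clip1, a microtubule plus-end protein, was highest at 3.27 ± 1.02, which rests on WT pellet replicate 1, with 1155 CPM there and 75 and 112 CPM in the others against 100, 108 and 109 CPM in RNA-seq. Trak1, an adaptor for mitochondria, was lowest at -2.20 ± 0.13, from 298 to 341 CPM in RNA-seq to 26.7 to 38.9 CPM in pellets. In FMR1 KO enrichment Clip1 (0.93 ± 0.15, adjusted p = 0.013) and Mapk8ip3 (JIP3, a dynein and kinesin adaptor, 0.87 ± 0.17, adjusted p = 0.023) were higher and none lower, beside 9.15% and 2.48% of all genes. With library size neither was called (adjusted p of 0.35 and 0.46 by edgeR), where 1.23% and 0.228% of all genes were.

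Axonemal dynein heavy chains, the motors of motile cilia, have the length of Dync1h1. Dnah10 and Dnah17 were low in standard WT RNA-seq, at 2.56 to 19 CPM, but some chains were high in other libraries. Dnah7b had a mean of 286 CPM in FMR1 KO standard pellets, against 5.74 CPM in their RNA-seq. In WT pellet occupancy 11 of 15 were higher and 2 lower, beside 31.2% and 34.3% of all genes and 57% higher among genes of 9000 nt or more. Under library size 4 were higher and 3 lower, beside 8.64% and 68% of all genes. Dnah10 was highest at 8.32 ± 2.28, again from WT pellet replicate 1, with 1140, 1.8 and 17.5 CPM against 2.56, 2.72 and 3.02 CPM. Dnah17 was lowest, at 0.377, 0.574 and 1.09 CPM against 18.4 to 19 CPM. In FMR1 KO enrichment 6 of 14 were higher and 0 lower (median 1.30), beside 9.15% higher of all genes and 62.2% of those of 9000 nt or more, led by Dnah5 at 2.40 ± 0.42 (adjusted p = 0.017), with 13.2, 4.16 and 12.2 CPM in pellets and 1.04, 2.28 and 3.75 CPM in fraction 5/6. Under library size 1 was called in that enrichment, beside 1.23% higher and 0.228% lower of all genes. The 4 ependyma markers summed to 14.3 to 29.2 CPM in standard pellets, 14.8 to 43.4 CPM in fraction 5/6 and 24.6 to 54.6 CPM in RNA-seq, and their part was not tested.

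The genes most like Dync1h1 over the 12 group means of log2 CPM were Herc2 (Pearson's r = 0.987), Mdn1 (0.985), Myh9 (0.985), Chd6 (0.977) and Apc2 (0.977), out of 16480. Their coding sequences run from 5880 nt (Myh9) to 16767 nt (Mdn1). Without the library that went against its label, Herc2, Mdn1, Myh9 and Chd6 were still among the first 5 (0.978 to 0.989), Apc2 was at rank 6 and Dync2h1 at rank 233 with r = 0.858. Herc2 held 569, 519 and 630 CPM in WT pellets and 37.3, 39 and 50.6 CPM in FMR1 KO fraction 5/6. Dync2h1 was at rank 272 with r = 0.838 and Dctn1 at rank 822 with r = 0.678, while the other 7 members lay between -0.425 and 0.00816. The means share libraries, and r is a description of likeness.

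Peaks, the places on a transcript where RPF coverage stands out, were listed for the 12 standard RPF libraries. The 10 members had 780, all in coding sequence, with 41 to 98 per library, and none on Dync2h1. The library that went against its label had 54. Pafah1b1 had 17 to 21 in every library, and their intervals covered 41% to 67.7% of its coding sequence. Dync1li2 had 4 to 21, Dctn4 5 to 16 and Dync1li1 1 to 5. Dctn1 ranged from 0 to 28, Dync1i1 and Dync1i2 from 0 to 16 and Dctn2 from 0 to 3. Peaks of Dync1i2 and Dctn4 were on a transcript other than the one that the count table names.

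Dync1h1 differed from the rest in where its peaks were. Its pellets held 0 in 5 of 6 libraries, and FMR1 KO pellet replicate 2 held 2, at 4235 and 12431 nt from the start codon. WT fraction 5/6 replicate 1 held 14 between 322 and 2499 nt, FMR1 KO replicate 1 held 8 between 333 and 799 nt and FMR1 KO replicate 2 held 11 between 329 and 1911 nt. The other 3 fraction 5/6 libraries, among them the library that went against its label, held 0. So most of its listed peaks were in fraction 5/6, near the start of its coding sequence. Their listed heights were 5 to 21, 0 to 20 and 2 to 20 in these 3 libraries in turn, against 71 and 77 for the pair in the pellet and a median of 14 to 16 over all peaks of a library. Heights are not scaled between libraries. The study's peak rule asks for a summit well over the transcript's average, found in every replicate, and whether the lists used here had passed it is not known.

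Peaks of all transcripts with 9000 nt or more of coding sequence, Dync1h1 among them, were counted in the same way. Of these, 21.9% to 23.5% lay within 3000 nt of the start codon in the 6 pellet libraries and 25.6% in the library that went against its label. In the other 5 fraction 5/6 libraries the share was 81.8% of 55, 100% of 2, 68.4% of 19, 77.4% of 31 and 50% of 4 peaks. Dync1h1 gave 14, 8 and 11 of the 55, 19 and 31 peaks, and without it, a choice made after the data were seen, the shares there were 75.6% of 41, 45.5% of 11 and 65% of 20. The counts are low, and no test was made.

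**Figure D5:**
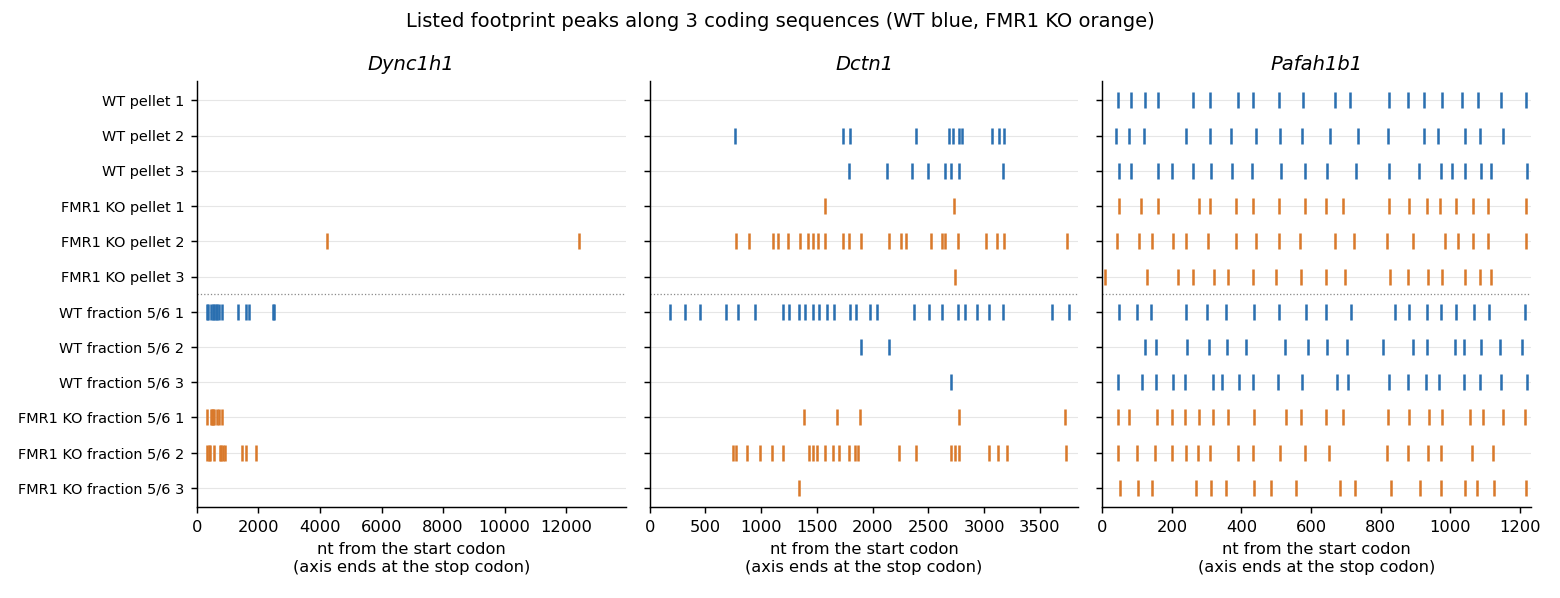
Listed peaks along the coding sequence of Dync1h1, Dctn1 and Pafah1b1 in the 12 standard RPF libraries, in nt from the start codon; each mark is the middle of 1 listed interval. Dync1h1 marks of fraction 5/6 lie at 322 to 2499 nt, its 2 pellet marks at 4235 and 12431 nt, and those of Pafah1b1 along the whole coding sequence in every library.

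The 29 nt around the Dync1h1 positions listed in 2 fraction 5/6 libraries are printed here. They lie on chr12, plus strand, in exons 2 to 8, at 329 nt from the start codon (chr12:110612410-110614050, across the junction of exons 2 and 3), 443 nt (chr12:110614136-110614164), 514 nt (across exons 3 and 4), 661 nt (chr12:110614488-110614516), 799 nt (chr12:110614908-110614936) and 1593 nt (chr12:110617744-110617772). Capitals mark the letters AGGA or TGGA, searched on the mRNA strand. Coordinates are good to 1 nt, but each position is the middle of a listed interval whose summit is not known. Median interval lengths were 25 to 27 nt in these libraries.
Dync1h1 329 nt: cattacggggtaaagtccaacagcttggc
Dync1h1 443 nt: tatgagacactgcactctttcatcagcaa
Dync1h1 514 nt: caaagcagacagggatggtgataagatgg
Dync1h1 661 nt: gcagtgctatgagcgcggagaaaagccca
Dync1h1 799 nt: ggatccagcatcAGGAactgccttgcagg
Dync1h1 1593 nt: atgtcaAGGAagtcgatggtcTGGAtgtt

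Few positions recurred among the smaller members when interval middles within 6 nt were matched. The 3 WT pellets shared 6, of which 5 were on Pafah1b1 and 1 on Dync1li2, and the 3 FMR1 KO pellets shared 3, on Dync1li2, Dctn4 and Pafah1b1. All 6 pellets shared 1, on Pafah1b1 at 823 nt from the start codon in exon 8, which was also listed in 3 fraction 5/6 libraries. None was shared by all fraction 5/6 libraries, with or without the one against its label. For comparison, 15.7% of 16568 genes had any peak in all 6 pellets and 2.3% a shared position. The sequences of the positions on Pafah1b1 and Dync1li2 are printed because they recurred in a whole pellet group (that on Dctn4 is not printed here), with AGGA or TGGA in capitals. They lie at chr11:74683521-74683549, chr11:74690546-74690574, chr11:74689050-74689078, chr11:74685937-74685965 and chr11:74679515-74679543 for Pafah1b1 and chr8:104425984-104426012 and chr8:104437589-104440497 (across exons 3 and 4) for Dync1li2, in the order printed and on the minus strand.
Pafah1b1 all 6 pellets, exon 8: tgagctccgagaacatgaacatgtggtgg
Pafah1b1 WT pellets, exon 3: ctatgaagaggcatattccgtttttaaaa
Pafah1b1 WT pellets, exon 5: gagaaatacgcattgagtggtcatAGGAg
Pafah1b1 WT pellets, exon 6: tcctgttcagcagatatgacgattaaatt
Pafah1b1 WT pellets, exon 10: tgacaagaccctccgtgtatgggattata
Dync1li2 WT pellets, exon 8: gtgaagccagaagacgcgtatgaagattt
Dync1li2 FMR1 KO pellets: gcgttcatgatgAGGAccgggacgatcac

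Of these 7 windows, 2 hold AGGA or TGGA, as do 2 of the 6 Dync1h1 windows. Windows with either, searched on the mRNA strand, were 26.1% to 53.4% of the members' windows per library and 36.8% to 45.1% of those of all coding genes. The ranges overlapped. A match to these letters describes the sequence and is not evidence of a binding site.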

How the data were processed

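RPFs of the pellet and fraction 5/6 and RNA-seq of the homogenate were measured in 36 libraries. The authors trimmed reads with Cutadapt 2.10, removed non-coding RNA with Bowtie2 2.3.5, aligned to GRCm38 (Ensembl 102) with STAR 2.7.8a, removed duplicates with Picard and SAMtools 1.19.2 and deposited whole-number counts per gene from featureCounts 2.2.0, without normalization. Peaks were deposited per library as intervals with a height, a coverage signal that the authors did not scale between libraries. The middle of each interval was used, since the files give no summit. Of 900 sequences that the study lists, 895 were found 1 nt before the listed start, so coordinates are good to 1 nt. Where the summit lies within an interval is not known. Median interval lengths of the members ran from 18 to 92 nt per gene and library.

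The 92 rows without a gene name (0.05% to 0.61% of counts) were left out. Protein-coding genes (GENCODE M21, 16568 rows) were filtered with filterByExpr, scaled by TMM and tested in edgeR 4.0.16 by quasi-likelihood F tests (limma 3.58.1, R 4.3.3) at an adjusted p of 0.05, with a prior count of 2 for log2 values. Occupancy and enrichment used only the groups compared, and their genotype differences were interaction terms over 4 groups. Figures and peak tables used Python 3.11.15, pandas 2.3.3, numpy 2.4.6, scipy 1.17.1 and matplotlib 3.10.9. Sequences came from the GRCm38 transcripts of GENCODE M21. The scripts were tested on simulated data.

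Alternatives were DESeq2 1.42.0, library size without Cdk8, no filter, Cdk8 left out, a replicate block and leaving out each library. The comparisons of low nuclease pellets with standard RNA-seq or without FMR1 KO RNA-seq replicates 2 and 3, and the peaks matched by overlapping intervals or without WT fraction 5/6 replicate 3, the likeness to Dync1h1 without it and the long transcripts without Dync1h1 were added after seeing the data. Text names all 10 members, from each pathway list the largest rise and fall past the threshold in WT occupancy and FMR1 KO enrichment (or every call where a list had at most 5), the 5 genes most like Dync1h1, Fmr1 and Cdk8. The members and lists were chosen with earlier results of these data known. P-values measure the spread between preparations of pooled brains. The study's listed sequences served only to check positions, and none of its measured values was used.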

Additional observations from a re-analysis of the deposited data

Results flagged for a closer look

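The occupancy of Dync1h1 in WT pellets changed sign between the preparations. It was 2.95 in the standard preparation, where all 3 pellet libraries were above all 3 RNA-seq libraries, and -1.43 in the low nuclease preparation, where it was measured against its own RNA-seq. The difference between the preparations was not tested. Each preparation has its own RNA-seq, and 1 of the 3 WT low nuclease RNA-seq libraries had 81.5% of its counts in 10 genes. Without that library the low nuclease value was -0.90 (adjusted p = 0.011 by edgeR), still lower than RNA-seq. Against standard RNA-seq the same low nuclease pellets gave 1.34 (adjusted p = 1.4e-04 by edgeR), the direction of the standard preparation.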

How the results depend on the processing

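Of 2016 alternative values for 170 results, 1886 kept their side of the threshold, 41 newly passed, 70 no longer passed and 19 turned direction with a call in either fit. A turn in direction without a call in either fit is counted among the 1886. These tallies leave out the counts of members called, the peak positions, the heavy chain share and the levels. Of 120 levels 61 moved by more than 1 SD under TMM scaling. The causes were not tested.

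Library size without Cdk8 called 3 members in WT fraction 5/6 occupancy in place of 7 (beside 5.6% higher and 59.7% lower of all genes), 0 in both low nuclease occupancies in place of 7 (WT, where 1.68% of all genes were then higher and 0.232% lower) and 4 (FMR1 KO, 1.3% and 0.0986%), and 1 in FMR1 KO standard over low nuclease pellets in place of 2. It turned WT pellet occupancy of Dync1li2 to -0.58, Dctn2 to -0.04 and Pafah1b1 to -0.84, and that of FMR1 KO to -0.62 (Dync1li2), -0.09 (Dctn2) and -0.07 (Dctn4). In fraction 5/6 it turned Dync1li2 to -0.54, Dctn4 to -0.12 and Pafah1b1 to -0.90 in WT, and Dync1li2 to -0.19 and Pafah1b1 to -0.71 in FMR1 KO. In WT standard over low nuclease pellets it turned Dync1i1 to -0.14, Dync1li1 to -0.02 and Dync1li2 to -0.45. DESeq2 called 4 members in FMR1 KO enrichment (beside 13.4% higher and 4.34% lower of all genes), 8 in FMR1 KO low nuclease occupancy (20.1% and 20.9%) and 5 in FMR1 KO standard over low nuclease pellets (14% and 15.6%). Standard RNA-seq gave 9 in FMR1 KO low nuclease occupancy, and turned Dync1h1 to 1.34 and Dctn1 to 1.04 in WT and Dync1h1 to 1.08 in FMR1 KO. Leaving out 1 library at a time put WT fraction 5/6 occupancy between -1.54 and 2.08 for Dync1h1 and between -0.94 and 1.32 for Dync2h1, both lowest and turned in direction without WT fraction 5/6 replicate 3.

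Leaving out 1 library in turn gave 0 to 4 calls in WT enrichment, 4 to 8 in WT and 3 to 7 in FMR1 KO low nuclease occupancy, 2 to 7 in WT and 0 to 5 in FMR1 KO standard over low nuclease pellets, and 1 to 5 positions shared by the pellets left. The share of all genes called higher moved too, over 0% to 7.81%, 19.6% to 29.2%, 5.9% to 22.1%, 6.05% to 15.5% and 1.09% to 12.5% in these 5 comparisons in turn. WT low nuclease occupancy had 4 calls without any 1 of its pellets, and that of FMR1 KO 7 without RNA-seq replicate 1. Shared positions rose to 2 without FMR1 KO pellet replicate 2 and to 5 without replicate 3. In these fits a group of 2 shares the spread of the others.

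Per coding length the heavy chain share was 6.34% and 6.82% in standard pellets of WT and FMR1 KO, 0.371% in FMR1 KO fraction 5/6, 2.15% and 2.08% in standard RNA-seq, 3.04% and 2.51% in low nuclease pellets, 0.431% and 0.495% in their fraction 5/6 and 11.5% and 9.61% in their RNA-seq. Matching within 3 nt left 0 positions shared by the 6 pellets and within 12 nt 7, and overlapping intervals 12. For all 12 libraries the values were 0 in the text, 1 within 12 nt and 2 by overlap.

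Replicate numbers were checked as pairs. In none of 15 comparisons did all same-numbered libraries deviate together with r over 0.1, and they were not treated as pairs. Only in WT low nuclease enrichment did all 3 libraries of the first group correlate best with their own number (r of 0.145, 0.0771 and 0.187), so some pairing there is possible. With the replicate block, 9 members were called in WT and 9 in FMR1 KO pellet occupancy, 2 in FMR1 KO enrichment and 0 in each genotype comparison. Of all genes, 28.9% and 32.2% were then higher and lower in WT pellet occupancy, and 29.1% and 32.9% in that of FMR1 KO. In FMR1 KO enrichment the shares were 4.95% and 0.137%, and Dync1h1 stood at 4.51. The block moved members called higher from 2 to 3 in WT low nuclease enrichment, from 6 to 5 in WT and 4 to 3 in FMR1 KO low nuclease occupancy, and from 6 to 5 in WT standard over low nuclease pellets, with 18.9%, 23.8%, 11% and 11% of all genes higher. FMR1 KO fraction 5/6 replicate 3 was the shallowest library, with 6765065 counts, and leaving it out still gave 0 member calls in the fraction 5/6 genotype comparison.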
